A study of Mus musculus with 18 samples.

Results

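Gene expression 24 h after a coronary ligation was set directly against that at 6 h, in 6 of the 18 mice of a time course of acute myocardial infarction (AMI). The members were the 3 mice of the 6-h AMI group, the 3 mice of the 24-h AMI group, and every gene that reached 1 FPKM in any of these 6. That kept 12469 of the 24419 symbols in the table. FPKM counts fragments per length of transcript and per size of library. Both groups were male C57BL/6 mice, 8 weeks old, anaesthetised with sodium pentobarbital (50 mg/kg) and ligated at the proximal stretch of the left anterior descending artery of the heart. The labels name no transgene and no further drug, and the groups differed by the time from ligation to sampling. The tissue was infarcted left ventricle, labelled heart, and the library was made from polyA RNA of the whole tissue. The 3 mice of the control group, described by the study as the sham time point, give the background level of each gene, and they entered no test but the fit of all 18 mice. Sham mice sampled at 6 or 24 h were not analysed here, so ligation and the time since anaesthesia and surgery cannot be told apart. The clock hour of sampling is not given in the sources used here.

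An infarct passes through overlapping phases. Cells at the edge of ischaemia first switch on immediate early and heat shock genes, neutrophils and then monocytes enter from the blood, macrophages clear dead myocytes, and fibroblasts begin to lay down the collagen of the scar. Surviving myocytes turn away from fatty acids and respond to the rise in wall stress with natriuretic peptides and other stretch genes. In RNA of whole tissue, fewer cells of a type and less RNA per cell cannot be told apart.

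From 6 h to 24 h, the early stress genes Hspa1a, Hspa1b, Fos, Fosb and Egr1, the 2 metallothioneins Mt1 and Mt2, and the pyruvate dehydrogenase kinase Pdk4 fell, while Arg1, Spp1, Lgals3, Fn1 and Col3a1, genes of macrophages and of the provisional matrix and scar, rose. At an adjusted p under 0.05 in limma, 1712 genes were higher at 24 h and 281 were lower, which is 13.7% and 2.25% of the genes tested (16% in either direction). With a ratio of mean FPKM over 2 as well, 554 were higher (4.44%) and 125 lower (1%). The 3 mice of each group did not overlap for 4559 genes higher at 24 h (36.6%) and 902 lower (7.23%), and 37.4% of the genes had an unadjusted p under 0.05. A gene is said below to have risen, fallen or been called only where its adjusted p was under 0.05. Counts of list members below stand beside these shares of all genes: 13.7% called higher, 2.25% called lower, and 36.6% and 7.23% without overlap. Fold changes are ratios of mean FPKM. Log2 fold changes, given ± SE, are of FPKM + 1, which understates the change of genes at low levels. Of the genes tested, 615 reached 1 FPKM only at 24 h (106 called) and 197 only at 6 h (30 called). Each was tested through the group where it was high, so the direction of its change was partly set by the filter. Named examples are Gins2, Cxcr6, Ltbp2, Car9 and Kctd12 on the 24 h side and Comp, Csf2 and Mir5130 on the 6 h side.

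The 6 libraries summed to 578195 to 600467 FPKM, with relative depths of 0.936 to 1.35 read from the steps of their low values (the depth in reads is unknown). Pearson correlations of log2(FPKM + 1) were 0.979 to 0.988 among the 6 h mice, 0.965 to 0.987 among the 24 h mice and 0.942 to 0.979 between the groups. On the first principal component, with 53.5% of the variance, the 6 h mice lay at -19.9, -32.9 and -25.1 and the 24 h mice at 12, 22.4 and 43.5, so the groups were apart. The third 24 h mouse was the farthest from 6 h. On the second, with 26.2%, the first 6 h mouse (27.6) and the third 24 h mouse (23.3) stood together against the other 4 (-27.2 to -4.14). The median gene tested was 0.21 higher at 24 h on the log2 scale, and 73.1% of the genes lay above 0. Median-of-ratios scaling, which sets the typical gene level between libraries, moved that median to -0.0020 and the split of calls at an adjusted p under 0.05 from 1712 higher and 281 lower to 435 and 438. Quantile normalization gave 403 and 301. List medians are therefore to be read below beside the median of 0.21. The calls of single genes test for any change and are not centred on that median.

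The calls depended on which mice were included. The second 6 h mouse lay farthest from the 24 h mice on the first component. Leaving it out left 1 gene higher and 1 lower with the adjusted p and the ratio, Kctd12 and Mir5130, 2 overlapping rows of 1 locus. The 1993 genes called in all 6 mice then had adjusted p from 0.00435 to 0.159, with their signs kept, and 672 higher and 202 lower genes had the ratio and an unadjusted p under 0.05. Leaving out the second 24 h mouse instead gave 107 higher and 17 lower, the first 6 h mouse 223 and 40, and the third 6 h mouse 209 and 38. The counts were 724 and 152 without the first 24 h mouse and 419 and 142 without the third. A fit of all 18 mice, which share 1 estimate of the spread, gave 964 higher and 196 lower. With that 6 h mouse left out it gave 833 and 219. Most paragraphs below give the fit of the 6 without the second 6 h mouse. Leaving out another mouse also removed calls from many lists, as for the immediate early genes.

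**Figure D1:**
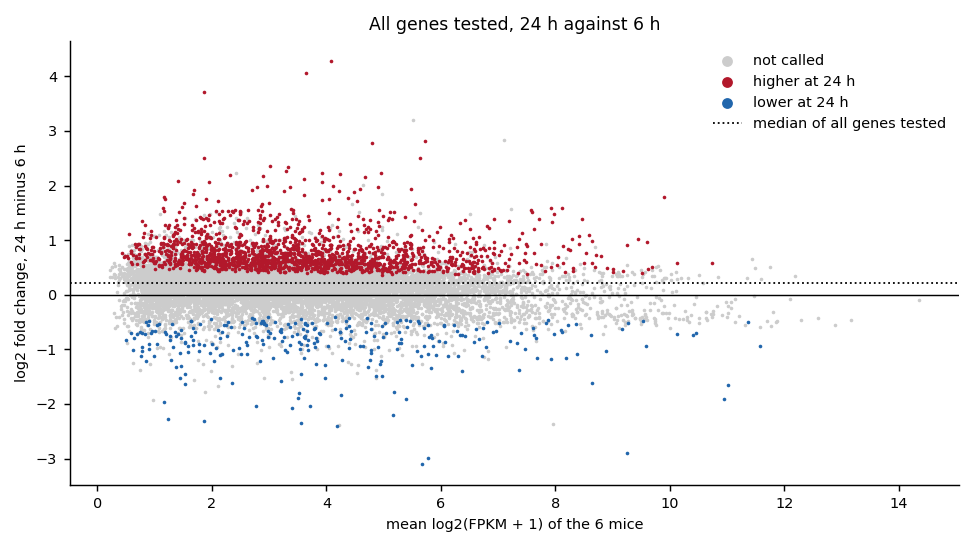
Log2 fold change from 6 h to 24 h (y axis, log2 of FPKM + 1) against the mean log2(FPKM + 1) of the 6 mice (x axis), 1 point per gene for the 12469 genes tested. Red points are the 1712 genes higher and blue points the 281 genes lower at an adjusted p under 0.05, and the dotted line is the median of all genes, 0.21.

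Immediate early genes are transcription factors and regulators induced within minutes of a stimulus without new protein. Of 24 tested, 6 fell, 0 rose (no member higher at an unadjusted p under 0.05), and the median log2 fold change was -0.60 against 0.21 for all genes. Egr1, a zinc finger factor of growth and injury signals, was at 141, 59.3 and 52.1 FPKM at 6 h and 8.42, 14.8 and 30.7 FPKM at 24 h, against 4.12, 5.43 and 5.03 FPKM in sham. All 3 mice at 24 h were below all 3 at 6 h and above sham. It fell 4.69-fold (log2 fold change -2.20 ± 0.50, adjusted p = 0.0312). Fos and Fosb, subunits of the AP-1 factor, came down too. Fos was at 45.6, 11.9 and 15.5 FPKM at 6 h and 2.71, 3.52 and 6.96 FPKM at 24 h. Fosb was at 32.9, 9.04 and 6.8 FPKM at 6 h and 1.8, 1.81 and 3.85 FPKM at 24 h. The first 6 h mouse was the highest for both, and no mouse of the groups overlapped (falls of 5.54-fold, adjusted p = 0.0332, and 6.53-fold, adjusted p = 0.0402). Atf3, a stress-induced repressor, was at 138, 49.1 and 41.8 FPKM at 6 h and 14, 15 and 30 FPKM at 24 h, against 2.08, 2.25 and 2.6 FPKM in sham, so that each 24 h mouse was still more than 10 FPKM above each sham mouse. It fell 3.88-fold (adjusted p = 0.0431). Arc, better known as an activity gene of neurons and outside the list, was at 38.2, 25.4 and 16.9 FPKM at 6 h and 2.53, 4.26 and 6.55 FPKM at 24 h, against 0.834, 0.591 and 1.38 FPKM in sham, without overlap. It fell 6.03-fold (adjusted p = 0.0139). The most abundant members not called were Klf6 at 169.8 ± 66.3 FPKM at 6 h and 117 ± 28.2 FPKM at 24 h (mean ± SD, n = 3) and Ier3 at 125 ± 45 FPKM at 6 h and 109 ± 59.8 FPKM at 24 h, with overlapping groups. Median-of-ratios scaling called 5 of the list lower and the fit of all 18 mice 11. The fit without the second 6 h mouse called none (limma adjusted p from 0.0727 to 0.114 for the 6, 11 members at an unadjusted p under 0.05).

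The inducible Hsp70 genes, chaperones that refold damaged proteins, gave the largest falls of the named genes on the scale of log2(FPKM + 1). Hspa1a was at 338, 82.6 and 118 FPKM at 6 h and 14.9, 8.03 and 35.7 FPKM at 24 h, against 2.23, 2.59 and 3.38 FPKM in sham. Hspa1b was at 360.1, 79.1 and 126 FPKM at 6 h and 16.2, 10.1 and 36.8 FPKM at 24 h, against 2.38, 2.28 and 4.63 FPKM in sham. Each 24 h mouse was below each 6 h mouse and above each sham mouse, and the first 6 h mouse was well above the other two. The falls were 9.18-fold for Hspa1a (log2 fold change -3.11 ± 0.62, adjusted p = 0.0237) and 8.95-fold for Hspa1b (-3.0 ± 0.61, adjusted p = 0.0242). The genes are near-identical copies, so how reads were split between them is uncertain. Their likeness reaches upstream, where 247 of the 250 bases before their starts are the same and 3 differ. Both windows are shown (RefSeq, GRCm38.p6, minus strand, Hspa1a at chr17:34972157-34972406 and Hspa1b at chr17:34959239-34959488, 5′ to 3′). Capitals mark the core of the heat shock element, GAANNTTC, the motif that heat shock factors bind.
Hspa1a: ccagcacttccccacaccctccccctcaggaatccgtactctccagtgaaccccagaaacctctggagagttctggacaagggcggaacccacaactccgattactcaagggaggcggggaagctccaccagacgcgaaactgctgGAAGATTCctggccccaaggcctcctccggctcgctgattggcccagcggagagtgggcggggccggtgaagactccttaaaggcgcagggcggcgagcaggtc
Hspa1b: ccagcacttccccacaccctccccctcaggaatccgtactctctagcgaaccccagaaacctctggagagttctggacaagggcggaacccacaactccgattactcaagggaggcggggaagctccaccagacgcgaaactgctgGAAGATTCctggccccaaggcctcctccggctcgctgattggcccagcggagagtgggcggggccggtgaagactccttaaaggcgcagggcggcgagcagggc
Of the 16 heat shock genes with a promoter window in the table, 5 hold that core on either strand, against 6.78% of 27025 windows of 250 bases. This describes the sequences alone.

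Few other heat shock genes were called. Of 20 tested, 2 fell, the 2 above, and 2 rose, against 2.25% of all genes called lower and 13.7% called higher. The median was 0.02 (-0.22 under median-of-ratios scaling, a change of sign). Chordc1, a co-chaperone of HSP90, was at 12.4, 10.3 and 12.4 FPKM at 6 h and 22.4, 21.1 and 22.1 FPKM at 24 h, against 18.2, 17.5 and 19.1 FPKM in sham, all 24 h mice above all others. It rose 1.87-fold (adjusted p = 0.0124). Stip1, the protein that passes clients from HSP70 to HSP90, rose 1.43-fold, from 30.9 ± 3.4 FPKM at 6 h to 44 ± 4.1 FPKM at 24 h (adjusted p = 0.0427). It was not called after median-of-ratios scaling (adjusted p = 0.212). The abundant small chaperones were not called: Hspb1 was at 4179, 3103 and 1681 FPKM at 6 h and 2896, 3273 and 4274 FPKM at 24 h, against 651, 599.6 and 703 FPKM in sham. Cryab was at 2732, 2600.3 and 1981 FPKM at 6 h and 2932, 3984 and 3377 FPKM at 24 h, against 1812, 1595 and 1682 FPKM in sham. At 24 h both still stood above sham in each mouse, and for Hspb1 the 6 h and 24 h mice overlapped. With the second 6 h mouse left out, limma called none of the 4 (adjusted p from 0.0592 to 0.135; 3 of the list higher and 3 lower at an unadjusted p under 0.05).

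Metallothioneins, small cysteine-rich proteins that bind zinc and copper and are induced by metals and glucocorticoids, came down from very high levels. Mt2 was at 4027, 3488 and 3923 FPKM at 6 h and 911, 578 and 1983 FPKM at 24 h, against 36.5, 34.4 and 36.3 FPKM in sham. Mt1 was at 3556, 3804 and 3648 FPKM at 6 h and 1143, 810.1 and 1722 FPKM at 24 h, against 279, 267 and 288 FPKM in sham. The 6 h mice were close together and the 24 h mice far apart, the third being the highest and the second the lowest for both genes. The lowest 24 h mouse still exceeded the highest sham mouse. Mt2 fell 3.29-fold (log2 fold change -1.91 ± 0.39, adjusted p = 0.025) and Mt1 3-fold (-1.65 ± 0.25, adjusted p = 0.0147). Both were called after median-of-ratios scaling but not without the second 6 h mouse (adjusted p from 0.0703 to 0.087). The zinc transporters did not pass, the importer Slc39a14 at 29.3 ± 4.32 FPKM at 6 h and 25.8 ± 6.48 FPKM at 24 h and the exporter Slc30a1 at 10.1 ± 1.49 FPKM at 6 h and 13.7 ± 1.07 FPKM at 24 h (adjusted p = 0.487 and 0.0768). The 250 bases before 1 annotated start of each metallothionein are printed (RefSeq, GRCm38.p6, plus strand, Mt1 at chr8:94178839-94179088 and Mt2 at chr8:94172368-94172617). Capitals mark each match, on either strand, to TGCNCNC, a loose pattern for the core of the metal response element. A match need not be such an element.
Mt1: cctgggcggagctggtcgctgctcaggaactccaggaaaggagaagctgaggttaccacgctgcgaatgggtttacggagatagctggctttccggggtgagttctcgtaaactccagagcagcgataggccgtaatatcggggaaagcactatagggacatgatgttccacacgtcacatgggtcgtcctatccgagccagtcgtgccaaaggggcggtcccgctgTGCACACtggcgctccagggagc
Mt2: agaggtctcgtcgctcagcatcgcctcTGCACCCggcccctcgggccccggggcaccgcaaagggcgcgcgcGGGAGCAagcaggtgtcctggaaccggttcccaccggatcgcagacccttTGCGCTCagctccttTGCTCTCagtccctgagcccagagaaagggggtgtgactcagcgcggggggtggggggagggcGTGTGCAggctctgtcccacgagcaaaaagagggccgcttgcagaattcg
Mt1 has 1 match and Mt2 has 5. In GENCODE vM21 (GRCm38) Mt1 starts at 94179082, inside its window, and Mt2 at 94172664, past the end of its window. The 2 windows are thus not placed alike, and the numbers of matches depend on the start used. All 4 members of the list with a window hold at least 1, as do 43.8% of all windows.

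Of 12 glucocorticoid-responsive genes tested, 3 fell and 0 rose (none higher at an unadjusted p under 0.05 in limma), with a median of -0.73. Fkbp5, a co-chaperone of the glucocorticoid receptor and a common readout of its activity, was at 112, 134 and 157 FPKM at 6 h and 54.5, 28.7 and 78.7 FPKM at 24 h, against 12, 17.3 and 15.9 FPKM in sham. The second 24 h mouse was the lowest and the third the highest of its group, with no overlap between the times. The fall was 2.49-fold (log2 fold change -1.40 ± 0.33, adjusted p = 0.0343). Zbtb16, a transcriptional repressor, fell 2.32-fold, from 28.1 ± 3.34 FPKM at 6 h to 12.1 ± 4.2 FPKM at 24 h, and the kinase Sgk1 1.65-fold, from 31.8 ± 4.59 FPKM at 6 h to 19.3 ± 1.3 FPKM at 24 h (adjusted p = 0.0209 and 0.0239). At 24 h Zbtb16 lay at 17, 9.23 and 10.2 FPKM, with 2 of the 3 mice in the sham range (8.04, 12.7 and 8.62). Lcn2 and Cdkn1a held levels far above sham without a call. Lcn2, a siderophore-binding acute phase protein, was at 264, 255 and 262 FPKM at 6 h and 214, 121 and 456 FPKM at 24 h, against 4.81, 4.2 and 3.54 FPKM in sham. Cdkn1a, the p21 cell cycle inhibitor, was at 231, 168 and 123 FPKM at 6 h and 62.5, 44.7 and 146 FPKM at 24 h, against 10.3, 8.82 and 11.2 FPKM in sham, the third 24 h mouse lying in the 6 h range for Cdkn1a and above it for Lcn2. Median-of-ratios scaling called 4 of the list lower and the fit of all 18 mice 7. When the second 6 h mouse was left out, limma called none (adjusted p from 0.0789 to 0.106; 5 lower at an unadjusted p under 0.05).

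The 12 named falls also held 5 genes of no shared group. Ptx3, a long pentraxin that opsonises microbes and dead cells, was at 71.1, 31.4 and 29.7 FPKM at 6 h and 4.02, 3.84 and 19.3 FPKM at 24 h, against 0.347, 0.101 and 0.287 FPKM in sham, the third 24 h mouse being well above the other two. It fell 4.88-fold (adjusted p = 0.0354). Otud1, a deubiquitinase, was at 47.1, 25 and 14.1 FPKM at 6 h and 4.94, 5.08 and 6.7 FPKM at 24 h, against 2.3, 2.94 and 2.79 FPKM in sham, with the 24 h mice close together and a little above sham. It fell 5.16-fold (adjusted p = 0.0209). Serpina3f, a serine protease inhibitor of a multigene cluster whose reads may be split among copies, was at 5.49, 4.01 and 3.29 FPKM at 6 h and 0.0273, 0.0493 and 0.131 FPKM at 24 h, and was listed at 0 in all 3 sham mice. It was thus seen in the 6 h mice and nearly absent on both sides of them (adjusted p = 0.00731). Cyp1a1, a cytochrome P450 that oxidises aromatic compounds, was at 6.74, 7.33 and 7.45 FPKM at 6 h and 1.74, 0.341 and 0.192 FPKM at 24 h, against 87.3, 160.0 and 304 FPKM in sham. The 6 h level was thus already far below sham, and the 24 h level a further 9.46-fold lower (log2 fold change -2.32 ± 0.30, adjusted p = 0.0114). A row named for the precursor locus of a microRNA, Mir5130, was at 5.24, 1.3 and 5.14 FPKM at 6 h and 0.124, 0.128 and 0.157 FPKM at 24 h, against 0.139, 6.56 and 4.4 FPKM in sham, 1 sham mouse lying at the 24 h level (adjusted p = 0.0211). In GENCODE vM21 (GRCm38) it spans chr14:102982549-102982632 on the minus strand, inside Kctd12 (chr14:102976581-102982637, same strand). In each of the 9 mice, sham included, Kctd12 was listed at 0 where Mir5130 was above 1 FPKM and was at 10 FPKM or more where Mir5130 was under 0.2. The 2 rows are therefore not independent, and how reads were split between them is uncertain. Without the second 6 h mouse, limma called only Mir5130 of these 5 (adjusted p = 0.0104, against 0.0559 to 0.0962 for the other 4), and all 5 were called after median-of-ratios scaling and in the fit of all 18 mice.

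**Figure D2:**
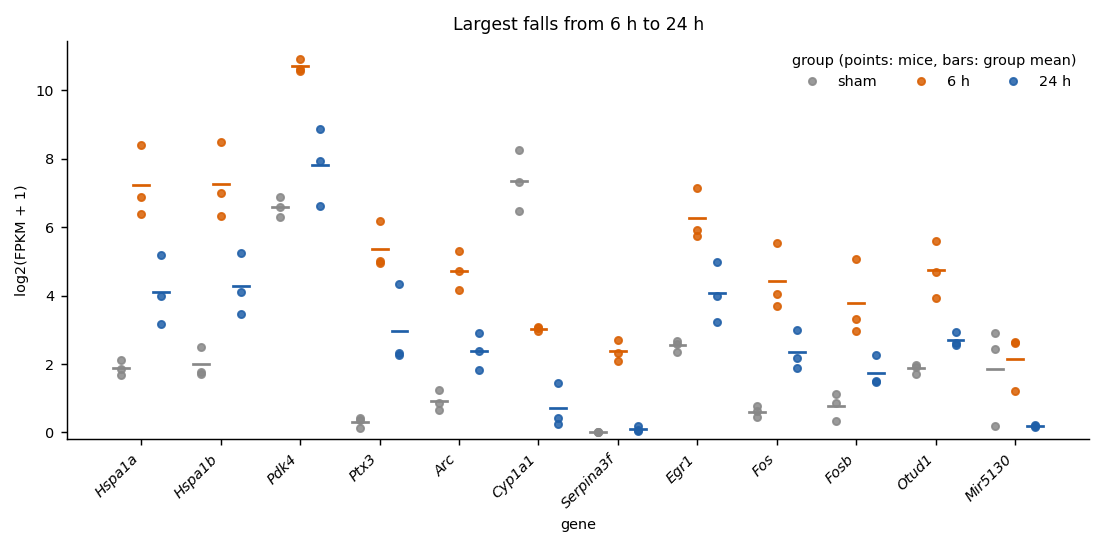
Expression of the 12 named genes with the largest falls from 6 h to 24 h, as log2(FPKM + 1) on the y axis with a gene at each position of the x axis. Points are mice (3 per group) and bars group means, for sham in grey, 6 h in orange and 24 h in blue. The 24 h points lie below all 6 h points for each gene, and Cyp1a1 has its highest points in sham.

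Chemokines draw leukocytes and cytokines instruct them. Of 28 chemokine ligands tested, 4 fell and 3 rose, and of 17 cytokines, 2 fell and 1 rose. Among all genes, 2.25% were called lower and 13.7% higher. The eotaxin Ccl11, which draws eosinophils, was at 8.61, 5.69 and 10 FPKM at 6 h and 1.41, 1.5 and 3.04 FPKM at 24 h, against 2.48, 3.05 and 1.99 FPKM in sham, below its 6 h level in each 24 h mouse and near sham. It fell 4.09-fold (adjusted p = 0.0157). Cxcl14, a chemokine of many resting epithelial and stromal cells, was at 38.9, 36.8 and 47.9 FPKM at 6 h and 15.4, 14.9 and 17.5 FPKM at 24 h, against 18.3, 16.9 and 22.4 FPKM in sham, at or just below the sham level by 24 h. It fell 2.59-fold (adjusted p = 0.00973). The interferon-induced Cxcl9, a ligand of CXCR3, was at 6.46, 5.56 and 3.94 FPKM at 6 h and 1.82, 2.2 and 1.13 FPKM at 24 h, against 6.37, 6.53 and 7.72 FPKM in sham, and so ended below sham. It fell 3.11-fold (adjusted p = 0.0182). Pf4, platelet factor 4, which macrophages also express, rose 2.73-fold, from 21.9 ± 8.26 FPKM at 6 h to 59.9 ± 25.8 FPKM at 24 h (adjusted p = 0.0376). Ccl2 and Ccl6, ligands that recruit monocytes and other myeloid cells, did not pass. Ccl2 was at 66.3 ± 19.8 FPKM at 6 h and 106 ± 84.9 FPKM at 24 h and Ccl6 was at 63.5 ± 41.4 FPKM at 6 h and 177 ± 121 FPKM at 24 h (adjusted p = 0.525 and 0.122). Their 24 h values ranged from 54.9 to 204 FPKM for Ccl2 and from 83.8 to 314 FPKM for Ccl6, with the third mouse the highest for both.

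Among the cytokines, the alarmin Il33 was at 21.6, 9.46 and 16.1 FPKM at 6 h and 3.7, 3.36 and 6.33 FPKM at 24 h, against 1.94, 3.13 and 2.25 FPKM in sham, lower in each 24 h mouse than in each 6 h mouse. It fell 3.52-fold (adjusted p = 0.0229). Csf2, the granulocyte-macrophage colony-stimulating factor, was at 2.16, 0.644 and 0.996 FPKM at 6 h and 0, 0 and 0.28 FPKM at 24 h, listed at 0 in sham and in 2 of the 24 h mice (adjusted p = 0.0397, 0.051 after median-of-ratios scaling). Clcf1, a gp130 cytokine, rose 2.21-fold, from 4.26, 6.81 and 3.22 FPKM at 6 h to 7.67, 10.7 and 13.3 FPKM at 24 h (adjusted p = 0.0412). Il1b, the leading inflammasome cytokine, was not called: its values of 49.4, 8.34 and 32 FPKM at 6 h and 7.68, 4.31 and 103 FPKM at 24 h, against 0.401, 0.414 and 0.364 FPKM in sham, spanned more within each time than between them (log2 fold change -0.56 ± 1.10). The same held for its receptor antagonist Il1rn, at 41, 4.49 and 13.2 FPKM at 6 h and 17.4, 8.28 and 115 FPKM at 24 h, against 0.199, 0.135 and 0.119 FPKM in sham. Median-of-ratios scaling called 4 chemokines and 1 cytokine lower and none higher. In the absence of the second 6 h mouse limma called none of either list (adjusted p from 0.0559 to 0.145 for the 10 genes), with 4 chemokines higher and 5 lower at an unadjusted p under 0.05.

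In the acute phase list of IL-6 and STAT3 signalling, 2 of 17 genes fell and 1 rose, with a median of -0.50. Cebpd, a C/EBP factor of the acute phase, was at 97, 58 and 55.7 FPKM at 6 h and 28, 30.2 and 41 FPKM at 24 h, against 9.57, 11.4 and 10.1 FPKM in sham. It fell 2.12-fold without overlap (adjusted p = 0.0324). Lbp, the lipopolysaccharide-binding protein, fell 2.71-fold, from 4.56, 4.4 and 5.07 FPKM at 6 h to 1.97, 1.12 and 2.09 FPKM at 24 h, against 1.82, 1.74 and 2.32 FPKM in sham, to the level of sham (adjusted p = 0.0157). Timp1, a tissue inhibitor of metalloproteinases, was instead at 14.5, 9.81 and 10.2 FPKM at 6 h and 33.1, 39.5 and 74.9 FPKM at 24 h, against 0.483, 0.36 and 0.45 FPKM in sham, all 24 h mice above all 6 h mice. It rose 4.28-fold (log2 fold change 1.94 ± 0.30, adjusted p = 0.0148). The receptors Il4ra, at 122 ± 44.9 FPKM at 6 h and 95 ± 66.6 FPKM at 24 h, and Il6st, at 96 ± 20.3 FPKM at 6 h and 91.7 ± 9.42 FPKM at 24 h, did not pass. No gene of 18 in the NF-kappaB list of subunits, inhibitors and adhesion targets was called by limma in either direction (1 at an unadjusted p under 0.05, lower at 24 h; 1 higher and 3 lower in the fit of all 18 mice). Its abundant members Nfkbia, at 79.7, 40.9 and 43.8 FPKM at 6 h and 34.2, 31.4 and 67.4 FPKM at 24 h, and Icam1, at 75, 45.9 and 50.8 FPKM at 6 h and 23.8, 24.8 and 63.1 FPKM at 24 h, overlapped between the times, with the third 24 h mouse at the 6 h level. Timp1, Cebpd and Lbp were not called without the second 6 h mouse (adjusted p from 0.0703 to 0.0868). Members of the STAT3 list called lower numbered 8 without the third 24 h mouse, 1 without the first, and 0 without each of the rest.

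MHC class II molecules present antigen to T cells. Of 8 members tested, 7 rose and 0 fell, with a median of 0.82. The one not called, H2-Ob, was at 0.977, 0.478 and 0.685 FPKM at 6 h and 0.68, 1.53 and 1.46 FPKM at 24 h. H2-Ab1, the beta chain of the I-A molecule, was at 46.2, 37.2 and 36.9 FPKM at 6 h and 79.2, 112 and 99.2 FPKM at 24 h, against 59.4, 68 and 61.7 FPKM in sham. It stood below sham in each 6 h mouse and above sham in each 24 h mouse. It rose 2.41-fold (log2 fold change 1.24 ± 0.16, adjusted p = 0.0115). H2-DMa and H2-DMb1, which load peptides onto class II molecules, rose 3.54-fold and 3.62-fold, from 3.16 ± 0.901 FPKM at 6 h to 11.2 ± 2.41 FPKM at 24 h, and from 1.85 ± 0.171 FPKM at 6 h to 6.7 ± 1.66 FPKM at 24 h (adjusted p = 0.0123 and 0.0114). H2-Aa rose 1.84-fold, to 36.2, 50.7 and 37.7 FPKM at 24 h against 32.2, 36 and 37.2 in sham (adjusted p = 0.0231). After median-of-ratios scaling 3 of the 7 were called, and without the second 6 h mouse none by limma (adjusted p from 0.057 to 0.138, 7 at an unadjusted p under 0.05). The macrophage markers given below rose with them, and their part in this was not tested.

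Of 27 interferon-stimulated genes tested, 3 rose and 0 fell (9 higher and none lower at an unadjusted p under 0.05), with a median of 0.39. Of all genes, 13.7% were called higher and 37.4% had an unadjusted p under 0.05 in limma, so these counts did not exceed the background. Oas1a, a sensor of double-stranded RNA, was at 3.64, 2.05 and 1.86 FPKM at 6 h and 6.04, 5.58 and 10.7 FPKM at 24 h, against 2.67, 2.88 and 3.23 FPKM in sham, and rose 2.96-fold without overlap (adjusted p = 0.0283). Bst2, tetherin, rose 1.8-fold, from 35.4 ± 2.84 FPKM at 6 h to 63.9 ± 11.5 FPKM at 24 h, and Ifit2 1.6-fold, from 7.14 ± 1.5 FPKM at 6 h to 11.4 ± 1.47 FPKM at 24 h, its 24 h mice lying near sham (11, 12.2 and 13 FPKM; adjusted p = 0.0221 and 0.0479). Of 13 genes of inflammasomes and pyroptosis, the lytic cell death made by gasdermin pores, 3 rose and 0 fell (5 higher at an unadjusted p under 0.05). Casp1, the inflammasome protease, was at 1.55, 1.6 and 1.61 FPKM at 6 h and 3.33, 3.29 and 3.36 FPKM at 24 h, against 2.7, 2.15 and 2.14 FPKM in sham, with very little spread within a time. It rose 2.1-fold (adjusted p = 0.0149). Pycard, the adaptor ASC, rose 2.23-fold, from 4.24, 4.6 and 6.29 FPKM at 6 h to 7.89, 9.02 and 16.9 FPKM at 24 h, against 6.8, 6.18 and 7.37 FPKM in sham (adjusted p = 0.0494). Dfna5, the gene of gasdermin E, rose 3.42-fold, from 1.2, 0.456 and 0.498 FPKM at 6 h to 2.15, 1.76 and 3.45 FPKM at 24 h, against 0.361, 0.354 and 0.631 FPKM in sham (adjusted p = 0.0334). Nek7, which activates NLRP3, overlapped at 21.8 ± 4.43 FPKM at 6 h and 23 ± 6 FPKM at 24 h. With median-of-ratios scaling 0 interferon-stimulated genes and 1 pyroptosis gene, Casp1 (adjusted p = 0.0348), were called by limma. None of the 6 was called without the second 6 h mouse (adjusted p from 0.081 to 0.128 and adjusted p from 0.0703 to 0.142), 5 and 3 members then being higher at an unadjusted p under 0.05.

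Some myeloid markers varied among mice and some rose with time, and the monocyte list held both. The 15 neutrophil markers in the table, of which 11 were tested, summed to 1061, 125 and 396 FPKM at 6 h and 229.5, 49.4 and 1073 at 24 h, against 3.57, 5.35 and 2.63 in sham. The first 6 h mouse and the third 24 h mouse were thus about equally high, and the second mouse of each time the lowest. None of the 11 tested was called by limma or reached an unadjusted p under 0.05. The fit of all 18 mice called 1 higher and 1 lower. S100a9 and S100a8 are the calprotectin subunits stored in neutrophil cytosol. S100a9 was at 768, 86.5 and 292 FPKM at 6 h and 156, 28.9 and 721 FPKM at 24 h, against 2.62, 4.02 and 1.53 FPKM in sham. S100a8 was at 167, 19.2 and 66.7 FPKM at 6 h and 35.8, 7.59 and 161 FPKM at 24 h, against 0.34, 0.55 and 0.375 FPKM in sham, a spread of over 20-fold among the 24 h mice (adjusted p = 0.618 and 0.652). The same 2 high mice were the highest of their groups for Il1b, Il1rn and the monocyte receptor Cd14, at 109.7, 15.8 and 34.8 FPKM at 6 h and 25, 16.7 and 151 FPKM at 24 h, against 4.5, 5.35 and 4.85 FPKM in sham. Of 8 monocyte markers, 2 rose and 0 fell (5 higher at an unadjusted p under 0.05), with a median of 1.39. Their sum overlapped between the times, at 164, 32.5 and 59.4 FPKM at 6 h and 109, 65.5 and 393 at 24 h. The same 2 mice were again the highest of their groups. Ccr2, the receptor that brings monocytes out of marrow and into tissue, was at 3.22, 1.73 and 2.94 FPKM at 6 h and 12.1, 15.4 and 27.4 FPKM at 24 h, against 0.602, 0.791 and 0.521 FPKM in sham, all 24 h mice far above the rest. It rose 6.96-fold (log2 fold change 2.36 ± 0.30, adjusted p = 0.0114). Ms4a4c rose 4.18-fold, from 1.86 ± 0.383 FPKM at 6 h to 7.75 ± 3.71 FPKM at 24 h (adjusted p = 0.0215), while Chil3, at 26.4, 5.87 and 9.1 FPKM at 6 h and 44.6, 17.9 and 142 FPKM at 24 h, against 0.0817, 0.0836 and 0.11 FPKM in sham, overlapped and did not pass (adjusted p = 0.0997). Both calls were lost without the second 6 h mouse (adjusted p from 0.057 to 0.0835) and kept after median-of-ratios scaling.

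Macrophages clear dead tissue and direct repair. Their 12 markers summed to 299, 172 and 257 FPKM at 6 h and 611, 645 and 916 at 24 h, with sham at 212, 213 and 240.3, so that the 6 h mice were around the sham level and the 24 h mice at more than 2 times it. Of the 12, 9 rose and 0 fell (12 higher at an unadjusted p under 0.05), with a median of 1.40. Ctss, the lysosomal protease of antigen-presenting cells, was at 27.3, 15.8 and 23.8 FPKM at 6 h and 74.4, 72.2 and 118 FPKM at 24 h, against 11.9, 12.1 and 14.1 FPKM in sham, and rose 3.96-fold (log2 fold change 1.94 ± 0.25, adjusted p = 0.0115). The 24 h mice were all above 70 FPKM and the 6 h mice all under 30. Aif1, an actin-binding protein of macrophages, was at 0.922, 0.745 and 1.49 FPKM at 6 h and 5.12, 7.02 and 5.58 FPKM at 24 h, against 2.19, 2.76 and 1.98 FPKM in sham, thus below sham in each 6 h mouse and above it in each 24 h mouse. It rose 5.62-fold (adjusted p = 0.00973). Fcgr1, the high-affinity receptor for IgG, rose 4.65-fold, and the lysozyme Lyz2 2.95-fold, from 4.01 ± 0.846 FPKM at 6 h to 18.7 ± 8.32 FPKM at 24 h, and from 143 ± 36.9 FPKM at 6 h to 420.5 ± 58 FPKM at 24 h (adjusted p = 0.0136 and 0.012). Tyrobp and Itgam, which neutrophils express too, did not pass (adjusted p = 0.0871 and 0.132), and the third 24 h mouse was the highest for both, at 47 and 45 FPKM. Median-of-ratios scaling called 8 of the 12, the fit of all 18 mice 12, and the fit without the second 6 h mouse 0 (adjusted p from 0.057 to 0.141 for the 9, 10 members at an unadjusted p under 0.05).

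**Figure D3:**
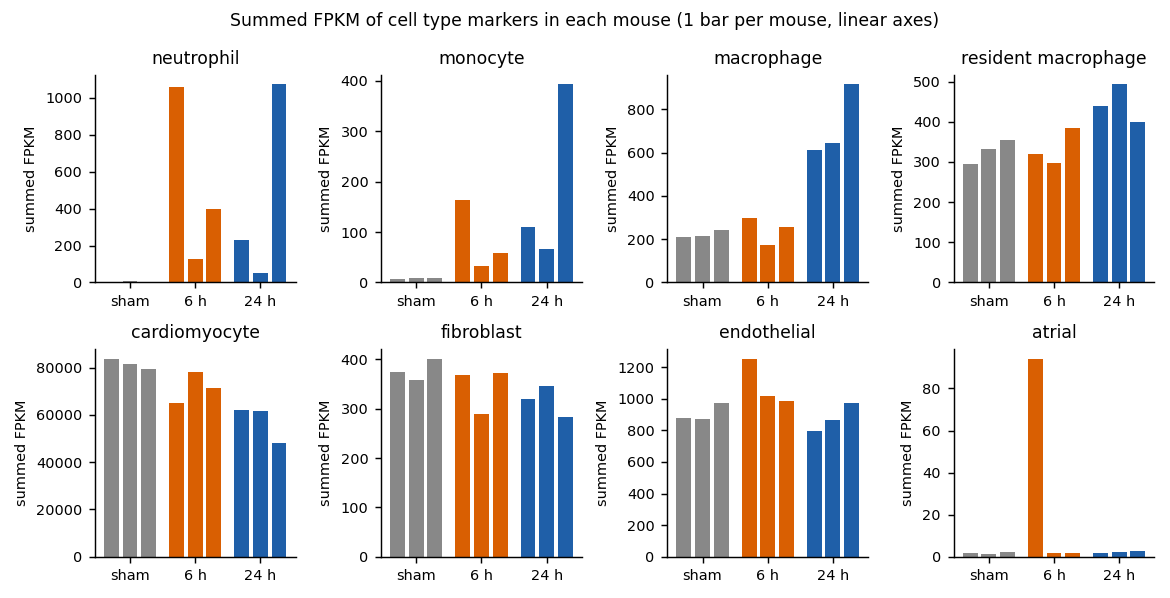
Summed FPKM of the listed marker genes of 8 cell types, tested or not, in each mouse, on linear y axes that start at 0, with 1 bar per mouse for sham (grey), 6 h (orange) and 24 h (blue) along the x axis. Macrophage bars at 24 h all exceed the others, neutrophil bars are high in the first 6 h and the third 24 h mouse, cardiomyocyte bars are lowest at 24 h, and atrial markers stand out in the first 6 h mouse alone.

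Of 12 resident macrophage genes tested, 2 rose and 0 fell, against 13.7% of all genes called higher, with a median of 0.36. At an unadjusted p under 0.05 in limma 3 were higher and 2 lower, and the fit of all 18 mice called 4 higher and 1 lower. The complement genes C1qa and C1qc, made by tissue macrophages, rose 1.53-fold and 1.57-fold, from 73.5 ± 6.61 FPKM at 6 h to 112 ± 22.4 FPKM at 24 h, and from 49.3 ± 3.87 FPKM at 6 h to 77.3 ± 13.6 FPKM at 24 h (adjusted p = 0.0489 and 0.0352). Neither was called after median-of-ratios scaling (adjusted p = 0.239 and 0.161 in limma), which called 1 other member lower. With the first 24 h mouse left out, 2 members were called lower and 0 higher. C1qb, at 58.9 ± 5.91 FPKM at 6 h and 80.1 ± 18.1 FPKM at 24 h, and F13a1, at 32.2 ± 10.2 FPKM at 6 h and 56.6 ± 27.3 FPKM at 24 h, overlapped between the times. In the third 24 h mouse, the highest for neutrophil and monocyte markers, C1qa was 91.5 FPKM and the lowest of its group. No resident gene was called without the second 6 h mouse (adjusted p from 0.118 to 0.135; 2 higher and 2 lower at an unadjusted p under 0.05 in limma).

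Genes of macrophages that take up lipid and debris held several of the large rises. Of 12 tested, 6 rose and 0 fell (1 lower at an unadjusted p under 0.05), the median being 0.37. Arg1, arginase 1, which macrophages induce in repair, was at 5.61, 0.685 and 4.01 FPKM at 6 h and 59.1, 23.8 and 276 FPKM at 24 h, against 0, 0.0214 and 0.0576 FPKM in sham, the third 24 h mouse being more than 4 times the other two. It rose 34.8-fold, with the widest error of the named rises (log2 fold change 4.28 ± 0.86, adjusted p = 0.0239). Spp1, osteopontin, a matrix phosphoprotein and cytokine, was at 4.68, 0.569 and 2.23 FPKM at 6 h and 35.6, 39.3 and 90.8 FPKM at 24 h, against 0.0112, 0.0336 and 0.0604 FPKM in sham, all 24 h mice above 35 and all others under 5. It rose 22.2-fold (4.07 ± 0.50, adjusted p = 0.0114). Lgals3, the galactose-binding lectin galectin-3, was at 32.6, 11 and 18.5 FPKM at 6 h and 112, 100.2 and 241 FPKM at 24 h, against 3.07, 4.99 and 3.94 FPKM in sham. It rose 7.3-fold (adjusted p = 0.0148). Trem2, a receptor for lipids and apoptotic cells, was at 2.8, 2.18 and 2.43 FPKM at 6 h and 10.1, 15.6 and 12.8 FPKM at 24 h, against 1.25, 2.32 and 2.68 FPKM in sham. Its 6 h mice lay within the sham range or just above it and its 24 h mice at more than 3 times that (a rise of 5.19-fold, adjusted p = 0.00731). The lysosomal cathepsins did not pass, Ctsd at 523 ± 46.6 FPKM at 6 h and 573 ± 49.4 FPKM at 24 h and Ctsl at 181 ± 16.8 FPKM at 6 h and 165 ± 20 FPKM at 24 h. After median-of-ratios scaling 5 were called higher and 1 lower. With the second 6 h mouse out, limma called none (adjusted p from 0.0559 to 0.136, 6 at an unadjusted p under 0.05).

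Among the other large rises were further genes of leukocytes. Cxcr6, a chemokine receptor of lymphocytes, was at 0.796, 0.476 and 0.316 FPKM at 6 h and 5.19, 8.83 and 9.49 FPKM at 24 h, against 0.148, 0.0505 and 0.0444 FPKM in sham. It rose 14.8-fold (log2 fold change 2.51 ± 0.23, adjusted p = 0.00731). None of 6 T cell and 5 NK cell markers reached 1 FPKM in any of the 6 mice. S100a4, a calcium-binding protein of fibroblasts and leukocytes, was at 12.5, 5.71 and 12 FPKM at 6 h and 53.9, 70.6 and 95.1 FPKM at 24 h, against 5.58, 4.77 and 5.9 FPKM in sham. It rose 7.28-fold (adjusted p = 0.00973). Each 24 h value was more than 4 times each 6 h value. Serpinb1a, an inhibitor of neutrophil proteases, was at 4.3, 2.18 and 4.34 FPKM at 6 h and 16.6, 17.3 and 35.6 FPKM at 24 h, against 2.3, 2.09 and 2.41 FPKM in sham, and rose 6.43-fold (adjusted p = 0.0123). Lair1, an inhibitory collagen receptor of leukocytes, was at 2.88, 2.94 and 4.91 FPKM at 6 h and 19.5, 26.8 and 16.6 FPKM at 24 h, against 6.47, 7.2 and 8.89 FPKM in sham, the 6 h mice all below sham and the 24 h mice all above it. It rose 5.87-fold (adjusted p = 0.00888). Bcl2a1b, an anti-apoptotic gene with near-identical copies among which reads may be split, was at 12.2, 2.54 and 6.26 FPKM at 6 h and 23.9, 19.5 and 68.4 FPKM at 24 h, against 1.82, 1.77 and 1.14 FPKM in sham. It rose 5.33-fold (adjusted p = 0.0399, 0.072 after median-of-ratios scaling). The 12 named rises also held Kctd12, which was listed at 0 in all 3 mice at 6 h and at 10.4, 11.7 and 14.8 FPKM at 24 h, but also at 10, 0 and 0 in sham. Its row mirrored that of the overlapping Mir5130 in all 9 of these mice, so a change of Kctd12 and reads assigned to the other symbol cannot be told apart, and no fold is given. Kctd12 was the 1 of these 6 called without the second 6 h mouse (adjusted p = 0.00435), the other 5 then having adjusted p from 0.0559 to 0.116.

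**Figure D4:**
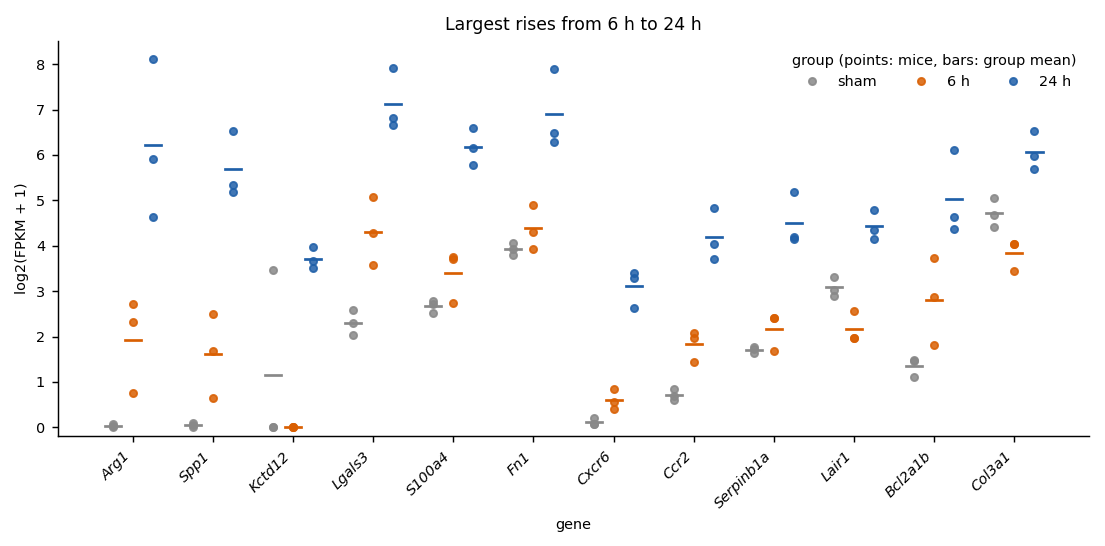
Expression of the 12 named genes with the largest rises from 6 h to 24 h, as log2(FPKM + 1) on the y axis with a gene at each position of the x axis. Points are mice (3 per group) and bars group means, for sham in grey, 6 h in orange and 24 h in blue. All 24 h points lie above all 6 h points (Kctd12 shares its locus with Mir5130), and Col3a1 and Lair1 have 6 h points below sham.

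Genes of DNA replication rose. Of 21 tested, 11 rose and 0 fell (18 higher and none lower at an unadjusted p under 0.05), and the median was 0.75. Without overlap between the times, 18 were higher, against 36.6% of all genes. Members such as Gins2, which reached 1 FPKM only at 24 h, were tested through the group where they were high. Mcm5, a subunit of the replicative helicase, was at 1.33, 1.64 and 2.09 FPKM at 6 h and 4.16, 10.6 and 6.67 FPKM at 24 h, against 1.74, 2.08 and 2.25 FPKM in sham, the second 24 h mouse the highest. It rose 4.23-fold (log2 fold change 1.53 ± 0.28, adjusted p = 0.0209). Gins2, of the helicase complex, was at 0.0282, 0.243 and 0.334 FPKM at 6 h and 1.32, 2.26 and 1.37 FPKM at 24 h, against 0.427, 0.578 and 0.508 FPKM in sham, below sham at 6 h in each mouse and above it at 24 h. Uhrf1, which guides maintenance methylation of DNA, rose 5.99-fold and the licensing factor Cdt1 2.9-fold, from 0.315 ± 0.0294 FPKM at 6 h to 1.89 ± 0.813 FPKM at 24 h, and from 1.05 ± 0.0633 FPKM at 6 h to 3.05 ± 0.883 FPKM at 24 h (adjusted p = 0.0232 and 0.0229). Pcna, the sliding clamp, was at 6.26 ± 0.4 FPKM at 6 h and 9.22 ± 1.41 FPKM at 24 h without overlap and did not pass (adjusted p = 0.0532). Mitosis genes were at lower levels, and 11 of 24 were tested. Of the 11, 10 were higher without overlap, against 36.6% of all genes. Limma called 0 (6 higher and none lower at an unadjusted p under 0.05, 9 higher in the fit of all 18 mice), and the median was 0.51. Members that reached 1 FPKM only at 24 h, as Bub1b did, were tested through the group where they were high. The count without overlap is thus in part set by the filter. Cdc20 was at 0.881, 1.01 and 0.857 FPKM at 6 h and 1.42, 1.69 and 1.11 FPKM at 24 h and Bub1b at 0.628, 0.472 and 0.336 FPKM at 6 h and 0.692, 1.52 and 1.09 FPKM at 24 h, both in the spindle checkpoint. In the windows before the starts of 8 of these mitosis genes, CCAAT was found in 8 (34.5% of all windows) and TTTGAA, the core of the cell cycle homology region, in 5 (16.3%), on either strand. Median-of-ratios scaling called 5 replication genes, and the fit without the second 6 h mouse 0 (limma adjusted p from 0.0718 to 0.118, 16 at an unadjusted p under 0.05). Replication genes called numbered 14 without the first 24 h mouse, 8 without the third, and 0 or 1 without each of the rest.

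Ribosomes and proteasomes make and break down protein. Of 81 cytosolic ribosomal proteins, whose processed pseudogenes make their counts uncertain, 18 rose and 1 fell, with a median of 0.34. Of the 81, 66 were higher without overlap, against 36.6% of all genes. Rpl3 was at 286, 254 and 307 FPKM at 6 h and 465, 586 and 635 FPKM at 24 h, against 225, 214 and 236 FPKM in sham. It rose 1.99-fold (adjusted p = 0.0148). Its striated muscle paralog Rpl3l went the other way, at 619.8, 699 and 713 FPKM at 6 h and 402, 374 and 243 FPKM at 24 h, against 727, 755 and 741 FPKM in sham, lowest in the third 24 h mouse. It fell 1.99-fold (adjusted p = 0.0224). These were also the 2 members called after median-of-ratios scaling. Rpl12 and Rpl10 rose 1.7-fold and 1.64-fold (adjusted p = 0.022 and 0.0195), whereas Rps2, the most abundant at 4129 ± 271 FPKM at 6 h and 5254 ± 570.0 FPKM at 24 h, did not pass. Of 37 proteasome subunits 13 rose and 0 fell (26 higher at an unadjusted p under 0.05), the median being 0.37, and median-of-ratios scaling called none by limma. The immunoproteasome subunit Psmb8 was at 13.6, 12.5 and 11.4 FPKM at 6 h and 19, 23.7 and 28.5 FPKM at 24 h, against 16.5, 18.4 and 20.2 FPKM in sham, below sham at 6 h. It rose 1.9-fold (adjusted p = 0.022), while the constitutive Psmb7 was at 305 ± 11.6 FPKM at 6 h and 308 ± 13.9 FPKM at 24 h (log2 fold change 0.01 ± 0.11). Of 20 genes of ribosome biogenesis 4 rose and 0 fell, led by nucleophosmin, Npm1, at 206 ± 5.25 FPKM at 6 h and 337 ± 53.8 FPKM at 24 h. It rose 1.64-fold (adjusted p = 0.0239). Their median of 0.22 was close to that of all genes, and median-of-ratios scaling called none. None of the 3 lists held a call by limma without the second 6 h mouse (adjusted p from 0.0703 to 0.158), with 28 ribosomal proteins, 23 proteasome subunits and 5 biogenesis genes higher at an unadjusted p under 0.05. Ribosomal proteins called higher numbered 38 without the first 24 h mouse, 4 without the third, and 0 or 1 without each of the rest. Proteasome subunits called higher numbered 10 without the first 24 h mouse, 4 without the third, and 0 without each of the rest.

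Of 18 genes of the integrated stress response, in which ATF4 drives amino acid synthesis and transport, 3 rose and 0 fell (6 higher at an unadjusted p under 0.05). This stands against 13.7% of all genes called higher. Psat1, of serine synthesis, was at 1.62, 1.96 and 2.45 FPKM at 6 h and 5.29, 7.66 and 9.28 FPKM at 24 h, against 1.2, 0.756 and 0.741 FPKM in sham, a rise of 3.69-fold without overlap (adjusted p = 0.0123). Mthfd2, of mitochondrial one-carbon metabolism, rose 2.87-fold and the factor Atf5 1.62-fold (adjusted p = 0.0417 and 0.0289). Atf4 itself was at 137, 106 and 86.1 FPKM at 6 h and 87.6, 99.1 and 168 FPKM at 24 h, against 48.3, 47.4 and 55.8 FPKM in sham. Ddit4, an inhibitor of mTORC1, was at 95.2, 62.7 and 55.5 FPKM at 6 h and 64.3, 43.6 and 39.7 FPKM at 24 h, against 27.4, 38.9 and 30.8 FPKM in sham. Both were not called, with overlap between the times and with 24 h values above sham for every mouse. Median-of-ratios scaling called Psat1 alone, and without the second 6 h mouse limma called none (adjusted p from 0.0608 to 0.128, 6 at an unadjusted p under 0.05). Targets of NRF2 and HIF gave 1 call each. G6pdx, the first enzyme of the pentose phosphate pathway, rose 2.04-fold, from 4.02 ± 1.17 FPKM at 6 h to 8.21 ± 2.17 FPKM at 24 h (adjusted p = 0.0406, 0.0918 after median-of-ratios scaling) among 12 NRF2 genes. Car9, a carbonic anhydrase induced by hypoxia, was at 0.047, 0.154 and 0.346 FPKM at 6 h and 1.06, 1.29 and 1.26 FPKM at 24 h, against 0.0665, 0.11 and 0.264 FPKM in sham, up in each mouse from a level near sham (adjusted p = 0.018, 1 of 13 genes). Vegfa, the angiogenic factor, was at 134 ± 30.8 FPKM at 6 h and 149 ± 20.3 FPKM at 24 h (adjusted p = 0.532). Neither G6pdx nor Car9 was called without the second 6 h mouse (adjusted p 0.119 and adjusted p 0.0772).

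Collagen is the main protein of scar. Of 16 collagen genes tested, 11 rose and 0 fell (13 higher and none lower at an unadjusted p under 0.05), with a median of 1.17. Without overlap, 13 were higher, against 36.6% of all genes. Col3a1, the collagen of early granulation tissue, was at 15.3, 9.81 and 15.4 FPKM at 6 h and 50.5, 91.2 and 61.8 FPKM at 24 h, against 24.7, 20.2 and 32.1 FPKM in sham. Each 6 h mouse was below each sham mouse and each 24 h mouse above, the second 24 h mouse being the highest, and the rise was 5.02-fold (log2 fold change 2.23 ± 0.25, adjusted p = 0.00973). Col1a1, the main collagen of mature scar, was at 12.5, 8.26 and 10.4 FPKM at 6 h and 28.5, 54.9 and 33.8 FPKM at 24 h, against 16.7, 13.2 and 19 FPKM in sham with the same order of the groups. It rose 3.76-fold (adjusted p = 0.013). Col5a1, which nucleates fibrils, rose 4.66-fold, from 4.98, 3.54 and 4.17 FPKM at 6 h to 16, 25 and 18.1 FPKM at 24 h, against 9.92, 8.3 and 10.7 FPKM in sham, and the microfibrillar Col6a3 3.2-fold, from 3.89 ± 0.876 FPKM at 6 h to 12.4 ± 1.91 FPKM at 24 h (adjusted p = 0.00733 and 0.0107). The basement membrane collagens were different. Col4a1 was at 198, 143 and 129.6 FPKM at 6 h and 120.1, 146 and 198 FPKM at 24 h, against 76.2, 58 and 79.9 FPKM in sham. Col4a2 was at 116, 97.6 and 86.6 FPKM at 6 h and 80.1, 95.6 and 137 FPKM at 24 h, against 51.9, 41.8 and 52.2 FPKM in sham. Both were above sham at 6 h and again at 24 h, with log2 fold changes of -0.03 ± 0.22 and 0.03 ± 0.21 between them. Median-of-ratios scaling called 8 of the 16, the fit of all 18 mice 14, and the fit without the second 6 h mouse 0 (adjusted p from 0.0559 to 0.0947, 11 at an unadjusted p under 0.05).

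Of 14 enzymes and chaperones that mature collagen, 8 rose and 0 fell (10 higher at an unadjusted p under 0.05), with a median of 0.68. Without overlap, 13 were higher, against 36.6% of all genes. Serpinh1, HSP47, the collagen chaperone of the endoplasmic reticulum, was at 158, 119 and 75.9 FPKM at 6 h and 180.0, 495 and 387 FPKM at 24 h, against 204, 159 and 225 FPKM in sham, the first 24 h mouse within the sham range. It rose 3.01-fold (adjusted p = 0.0427). Loxl2 and Loxl1, which cross-link collagen and elastin, rose 3.19-fold and 2.17-fold, from 4.51 ± 1.34 FPKM at 6 h to 14.4 ± 3.68 FPKM at 24 h, and from 19.1 ± 1.24 FPKM at 6 h to 41.4 ± 11.1 FPKM at 24 h (adjusted p = 0.0147 and 0.0221). P4hb, the beta subunit of prolyl hydroxylase, was at 106, 90 and 101 FPKM at 6 h and 161, 165 and 244 FPKM at 24 h, against 86.5, 82.4 and 86.6 FPKM in sham. It rose 1.92-fold (adjusted p = 0.0235). The lysyl hydroxylases Plod3 and Plod1 were higher without overlap but did not pass (adjusted p = 0.0518 and 0.182). With median-of-ratios scaling 3 were called, and without the second 6 h mouse 0 by limma (adjusted p from 0.0657 to 0.136, 9 at an unadjusted p under 0.05).

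Matricellular proteins signal from the matrix, and proteases remodel it. Of 15 matricellular genes, 7 rose and 2 fell. Fn1, fibronectin of the provisional matrix, was at 28.9, 14.3 and 18.8 FPKM at 6 h and 88.3, 77.4 and 239 FPKM at 24 h, against 13, 14.2 and 15.8 FPKM in sham, with the third 24 h mouse far above the rest. It rose 6.52-fold (log2 fold change 2.51 ± 0.43, adjusted p = 0.0181). Tnc, tenascin-C of injury borders, was at 22.1, 4.21 and 6.28 FPKM at 6 h and 28.7, 36.1 and 41.1 FPKM at 24 h, against 0.266, 0.155 and 0.212 FPKM in sham, so that the first 6 h mouse was near the 24 h level. It rose 3.25-fold (adjusted p = 0.0415, 0.082 after median-of-ratios scaling). Postn, periostin of activated fibroblasts, was at 11.1, 5.98 and 7.57 FPKM at 6 h and 22.9, 43.1 and 25.2 FPKM at 24 h, against 6.51, 5.95 and 8.81 FPKM in sham, the 6 h mice within or near the sham range. It rose 3.69-fold (adjusted p = 0.0158). The YAP targets Ctgf and Cyr61 were high at both times without a call. Ctgf was at 468, 369 and 162 FPKM at 6 h and 212, 289 and 325 FPKM at 24 h, against 29.8, 25.6 and 27.9 FPKM in sham. Cyr61 was at 271, 175 and 87 FPKM at 6 h and 51.1, 69.6 and 132 FPKM at 24 h, against 25.1, 20.7 and 19.1 FPKM in sham. Of 20 proteases and inhibitors, 4 rose and 2 fell. Timp3, a heart-enriched inhibitor bound to matrix, was at 531, 457 and 468 FPKM at 6 h and 250.1, 229.9 and 203 FPKM at 24 h, against 277, 330.3 and 303 FPKM in sham, above sham in each 6 h mouse and below it in each 24 h mouse, a fall of 2.13-fold against the rise of Timp1 (log2 fold change -1.09 ± 0.13, adjusted p = 0.0107). The macrophage elastase Mmp12 was at 0.259, 0.0641 and 0.522 FPKM at 6 h and 2.4, 2.15 and 4.2 FPKM at 24 h, against 0.0966, 0.198 and 0.153 FPKM in sham. The urokinase Plau was at 1.81, 0.877 and 1.49 FPKM at 6 h and 3.2, 4.15 and 5.63 FPKM at 24 h, against 1.13, 1.39 and 1.19 FPKM in sham. Both rose (adjusted p = 0.0136 and 0.022). Adamts1, which cleaves versican, stayed well above sham without a call, at 109 ± 55 FPKM at 6 h and 54 ± 17.6 FPKM at 24 h. Limma called none of either list without the second 6 h mouse (adjusted p from 0.057 to 0.148), 7 matricellular genes being higher and 2 lower, and 4 proteases or inhibitors higher and 3 lower, at an unadjusted p under 0.05.

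Of 13 myofibroblast genes, 6 rose and 0 fell (8 higher at an unadjusted p under 0.05), with a median of 0.86. Vim, the intermediate filament of mesenchymal cells and leukocytes, was at 194, 119 and 144 FPKM at 6 h and 332, 465 and 476 FPKM at 24 h, against 136, 118 and 157 FPKM in sham, each 24 h mouse above each other mouse. It rose 2.78-fold (adjusted p = 0.0137). The actin cross-linker Flna and the tropomyosin Tpm2 rose 2.03-fold and 1.99-fold (adjusted p = 0.032 and 0.0183). Tagln, a marker of contractile smooth muscle and myofibroblasts, was at 65.6, 53.4 and 69.9 FPKM at 6 h and 70.1, 92.4 and 99.7 FPKM at 24 h, against 65.8, 70.4 and 88.5 FPKM in sham, and did not pass (adjusted p = 0.0956). Fibroblast markers split, with 2 of 9 rising and 2 falling. Ltbp2, a latent TGF-beta binding protein of the matrix, was at 0.896, 0.495 and 0.593 FPKM at 6 h and 3.31, 6.06 and 7.14 FPKM at 24 h, against 0.595, 0.429 and 0.83 FPKM in sham, a rise of 8.32-fold from the sham level (adjusted p = 0.0114), and the proteoglycan Lum regained the sham level, from 17.8, 11.6 and 20 FPKM at 6 h to 31.6, 40.9 and 23.2 FPKM at 24 h, against 32, 27.8 and 32.3 FPKM in sham (adjusted p = 0.0486). Dcn, decorin, a proteoglycan that binds collagen fibrils, was at 119.8, 106 and 136 FPKM at 6 h and 88.9, 77.7 and 67.6 FPKM at 24 h, against 120.2, 128 and 126 FPKM in sham, a fall of 1.55-fold to below sham (adjusted p = 0.0346). Comp fell from 0.932 ± 0.377 FPKM at 6 h to 0.18 ± 0.0879 FPKM at 24 h (adjusted p = 0.0457), and Pdgfra, the receptor that marks cardiac fibroblasts, at 40.3, 28.7 and 43.6 FPKM at 6 h and 46.1, 53.2 and 69.1 FPKM at 24 h, against 32.5, 31.4 and 31 FPKM in sham, did not pass (adjusted p = 0.0889). The 9 markers summed to 369, 289.8 and 373 FPKM at 6 h and 319, 345 and 282 at 24 h, which overlap. With median-of-ratios scaling 2 myofibroblast genes and 1 rising and 2 falling fibroblast genes were called, and without the second 6 h mouse limma called none (adjusted p from 0.057 to 0.148; 9 higher and 3 lower over both lists at an unadjusted p under 0.05).

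Of 17 cardiomyocyte markers, 2 fell and 0 rose (8 lower and none higher at an unadjusted p under 0.05), and the median was -0.45. Without overlap, 7 were lower, against 7.23% of all genes. Their sum was 65079.6, 78273 and 71202 FPKM at 6 h and 62149, 61783 and 48193 at 24 h, against 83706, 81649 and 79542 in sham, the third 24 h mouse being the lowest. Myh6, the adult alpha myosin heavy chain, was at 3803, 4531 and 4267 FPKM at 6 h and 2618, 2606 and 1553 FPKM at 24 h, against 5279, 4903 and 4889.5 FPKM in sham, each 24 h mouse below each 6 h mouse and each of those below sham. It fell 1.86-fold (log2 fold change -0.93 ± 0.22, adjusted p = 0.032). Myoz2, a Z-disc protein that binds calcineurin, was at 209, 224 and 208 FPKM at 6 h and 162, 134 and 105 FPKM at 24 h, against 206, 212 and 201 FPKM in sham, with the 6 h mice at or just above the sham level. It fell 1.6-fold (adjusted p = 0.0343). The ventricular light chain Myl3, at 10742 ± 767 FPKM at 6 h and 7875 ± 1026 FPKM at 24 h, and troponin T, Tnnt2, at 21803 ± 3533 FPKM at 6 h and 20151 ± 1249 FPKM at 24 h, did not pass (adjusted p = 0.0624 and 0.632). Both calls were lost without the second 6 h mouse (adjusted p from 0.111 to 0.113; 5 members lower at an unadjusted p under 0.05 in limma). The rise of macrophage markers and the lower sum of cardiomyocyte markers went together in the 24 h mice, and the part of this shift in the changes of single genes was not tested.

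Of 14 stretch and fetal genes of the myocyte tested, 3 rose and 0 fell (5 higher and 1 lower at an unadjusted p under 0.05), with a median of 0.51. Nppa, the atrial natriuretic peptide, was at 851, 606 and 254 FPKM at 6 h and 1563, 2273 and 1548 FPKM at 24 h, against 485, 206 and 338 FPKM in sham. All 24 h mice were above every other mouse. Nppa rose 3.15-fold (log2 fold change 1.79 ± 0.41, adjusted p = 0.0314, 0.072 after median-of-ratios scaling). The first 6 h mouse, the highest for Nppa at that time, also held atrial markers, whose sum was 94.1, 1.72 and 1.93 FPKM at 6 h and 1.94, 2.25 and 2.71 at 24 h, with Myl4 at 63 and Myl7 at 18.7 FPKM in that mouse. Without it, limma still called Nppa at an adjusted p of 0.0446. Fhl1, a LIM protein that senses strain at titin, was at 266, 268 and 146 FPKM at 6 h and 479, 715 and 549 FPKM at 24 h, against 60.1, 57.6 and 63.7 FPKM in sham, a second step above sham. It rose 2.56-fold (adjusted p = 0.0219). Mybpc2, the myosin-binding protein C of fast skeletal muscle, was at 8.19, 7.35 and 5.67 FPKM at 6 h and 15, 14 and 12.3 FPKM at 24 h, against 6.73, 6.74 and 7.17 FPKM in sham, the 6 h mice around sham and the 24 h mice at about 2 times it (adjusted p = 0.0188). Ankrd1, the titin-linked ankyrin repeat protein, was already high at 6 h, at 3746, 3400.0 and 1834 FPKM at 6 h and 3674, 3667 and 5089.8 FPKM at 24 h, against 717, 744 and 604 FPKM in sham, and Csrp3, a Z-disc LIM protein, was at 2229 ± 527 FPKM at 6 h and 3504 ± 738 FPKM at 24 h, and neither passed. None of the 3 was called after median-of-ratios scaling or, by limma, without the second 6 h mouse (adjusted p from 0.0703 to 0.09; 7 members higher at an unadjusted p under 0.05).

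Of 20 genes of ion channels and calcium handling, 3 fell and 0 rose (5 lower and 2 higher at an unadjusted p under 0.05). Kcnip2, the subunit that carries the transient outward potassium current to the membrane, was at 50.4, 61.5 and 43.9 FPKM at 6 h and 26, 19 and 11 FPKM at 24 h, against 68.3, 67.2 and 71.3 FPKM in sham, a fall of 2.78-fold with the third 24 h mouse the lowest (log2 fold change -1.49 ± 0.28, adjusted p = 0.0221). Kcna5, a potassium channel of the ultrarapid current, was at 17.7, 15.1 and 12.8 FPKM at 6 h and 8.87, 7.03 and 7.04 FPKM at 24 h, against 9.94, 11.6 and 11 FPKM in sham, above sham at 6 h and below it at 24 h. It fell 1.99-fold (adjusted p = 0.0181). Hcn2, a pacemaker channel, fell 2.07-fold, from 7.57, 6.99 and 7.56 FPKM at 6 h to 4.51, 4.01 and 2.19 FPKM at 24 h, against 9.82, 8.86 and 9.32 FPKM in sham (adjusted p = 0.0314). Atp2a2, the calcium pump of the sarcoplasmic reticulum, at 3769 ± 525 FPKM at 6 h and 2549.8 ± 673 FPKM at 24 h, and Ryr2, its release channel, at 1907 ± 399 FPKM at 6 h and 1399 ± 365 FPKM at 24 h, did not pass (adjusted p = 0.0843 and 0.178). The 3 calls were kept after median-of-ratios scaling and lost without the second 6 h mouse (adjusted p from 0.0772 to 0.0964).

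Pdk4 was the third largest fall on the scale of log2(FPKM + 1). This kinase shuts pyruvate out of the citric acid cycle and is induced by fasting, fatty acids and glucocorticoids. It was at 1567, 1921 and 1531 FPKM at 6 h and 246, 96.9 and 465 FPKM at 24 h, against 118, 95.2 and 77.6 FPKM in sham, so that 1 of the 24 h mice had returned to the sham range while the third kept several times it. It fell 6.21-fold (log2 fold change -2.89 ± 0.49, adjusted p = 0.0176). It was 1 of 4 falls among 28 genes of fatty acid uptake and oxidation, none of which rose (22 lower and none higher at an unadjusted p under 0.05), with a median of -0.47. Ucp3, a mitochondrial carrier that follows fatty acid supply, was at 53.7, 110.0 and 119 FPKM at 6 h and 38.1, 24.5 and 43.3 FPKM at 24 h, against 21.5, 22.3 and 21.3 FPKM in sham. It fell 2.67-fold (adjusted p = 0.0363). The first 6 h mouse was the lowest of its group for Ucp3 and for Plin5, a coat protein of lipid droplets at mitochondria, which was at 58, 99.1 and 83 FPKM at 6 h and 48.6, 30.2 and 32.9 FPKM at 24 h, against 50.3, 49 and 55.4 FPKM in sham. It fell 2.15-fold (adjusted p = 0.0304). Eci1, of beta-oxidation, fell 1.44-fold, from 393 ± 37 FPKM at 6 h to 273 ± 44.5 FPKM at 24 h (adjusted p = 0.0486), and the abundant Fabp3, the heart fatty acid-binding protein, at 7227 ± 1205 FPKM at 6 h and 5412 ± 1202 FPKM at 24 h, did not pass (adjusted p = 0.152). Median-of-ratios scaling called 4 of the 28 lower and the fit of all 18 mice 24. Leaving out the second 6 h mouse gave 0 calls (limma adjusted p from 0.0772 to 0.154, 7 at an unadjusted p under 0.05). The count was also 0 without the third 6 h mouse. It was 16 without the first 24 h mouse, and 1 or 2 without each of the rest.

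Of 76 subunits of oxidative phosphorylation, 3 fell and 0 rose (45 lower and none higher at an unadjusted p under 0.05), 53 were lower without overlap against 7.23% of all genes, and the median was -0.37. Cox7a1, the heart and muscle isoform of a cytochrome oxidase subunit, was at 1541, 1931 and 1955 FPKM at 6 h and 1287, 1194 and 872 FPKM at 24 h, against 1992, 1876 and 1751 FPKM in sham. It fell 1.62-fold (adjusted p = 0.0402). Atp5k and Ndufa10 fell 1.48-fold and 1.39-fold (adjusted p = 0.0492 and 0.0496), and the abundant Cox6c, at 3988 ± 443 FPKM at 6 h and 3220.2 ± 475 FPKM at 24 h, did not pass. This count moved with the scaling, median-of-ratios calling 13 lower, and with the fit, all 18 mice giving 57. Of 22 genes of glycolysis, 2 rose and 2 fell. Eno1, the ubiquitous enolase, was at 137, 123 and 128 FPKM at 6 h and 222, 222 and 548 FPKM at 24 h, against 109, 95.3 and 109.6 FPKM in sham, and rose 2.56-fold (adjusted p = 0.0461). The muscle enolase Eno3 was at 652, 727 and 741 FPKM at 6 h and 517, 521 and 358 FPKM at 24 h, against 1000.4, 931 and 955 FPKM in sham, already below sham at 6 h. It fell 1.52-fold (adjusted p = 0.0463). Pgam1, the non-muscle phosphoglycerate mutase, rose 1.95-fold, and Ldhb, the heart-type lactate dehydrogenase subunit, fell 1.59-fold (adjusted p = 0.0441 and 0.0343). Both rises were lost after median-of-ratios scaling (adjusted p = 0.101 and 0.111) and both falls kept. Gapdh and Aldoa were at 2237 ± 103 FPKM at 6 h and 1935 ± 121 FPKM at 24 h and 1937 ± 244 FPKM at 6 h and 1683 ± 67.7 FPKM at 24 h without a call. No gene of either list was called without the second 6 h mouse (limma adjusted p from 0.116 to 0.144), 10 subunits and 3 glycolytic genes then being lower, and 2 glycolytic genes higher, at an unadjusted p under 0.05.

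Of 12 endothelial genes, 1 fell and 0 rose (2 lower and none higher at an unadjusted p under 0.05). Vwf, von Willebrand factor, was at 239, 168 and 186 FPKM at 6 h and 128, 97 and 103 FPKM at 24 h, against 137, 129.7 and 181 FPKM in sham, above the range of 24 h in each 6 h mouse and below sham in each 24 h mouse. It fell 1.8-fold (adjusted p = 0.0246; 0.0706 if the second 6 h mouse is left out). Pecam1 and Cdh5, of endothelial junctions, were at 259.7 ± 43.4 FPKM at 6 h and 210.1 ± 34 FPKM at 24 h and 110.1 ± 22.8 FPKM at 6 h and 89.9 ± 15.2 FPKM at 24 h with overlap. None of 7 mural and 4 epicardial genes was called by limma (2 mural genes higher, 1 mural and 1 epicardial gene lower, at an unadjusted p under 0.05). The pericyte gene Rgs5 was lower without overlap, at 91.2, 64.2 and 84.3 FPKM at 6 h and 63.7, 51.3 and 46.1 FPKM at 24 h, against 86.2, 102 and 100.2 FPKM in sham (adjusted p = 0.0659). Haemoglobin, read as a measure of blood in the tissue, overlapped, with Hba-a2 at 2929.9, 3981 and 1721 FPKM at 6 h and 2262, 1308 and 2987 FPKM at 24 h, against 2159, 1559.7 and 2647 FPKM in sham, and no erythroid gene was called (1 of 5 lower at an unadjusted p under 0.05). Of 5 platelet genes, Pf4 was the 1 called. Both B cell genes tested, Cd79a and Cd79b, stayed under 3 FPKM in every mouse without a call, and none of 5 adipocyte markers was tested.

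Clock genes were examined because the hour of sampling is unknown. Of 17 tested, 2 fell and 0 rose (4 lower and none higher at an unadjusted p under 0.05), with a median of -0.22. Cry1 and Cry2, cryptochromes that repress CLOCK and BMAL1, both went down. Cry1 was at 8.12, 7.81 and 7.37 FPKM at 6 h and 5.26, 5 and 5.69 FPKM at 24 h, against 4.26, 4.93 and 5.09 FPKM in sham. Cry2 was at 55.9, 44.9 and 44.8 FPKM at 6 h and 36.4, 35.5 and 32.9 FPKM at 24 h, against 50.6, 54.2 and 46.6 FPKM in sham, with no overlap between the times. The falls were 1.46-fold and 1.39-fold (adjusted p = 0.0348 and 0.05). The nuclear receptors Nr1d1 and Nr1d2, among the most rhythmic genes of the heart, overlapped and were below sham at 6 h. Nr1d1 was at 52, 36 and 35.1 FPKM at 6 h and 26.2, 43.3 and 49.5 FPKM at 24 h, against 70, 59.4 and 68.2 FPKM in sham. Nr1d2 was at 40.1, 38.2 and 51.6 FPKM at 6 h and 44.7, 50.8 and 36.2 FPKM at 24 h, against 64.9, 70.3 and 68.1 FPKM in sham. Of 14 clock genes with a promoter window, 5 hold the E-box CACGTG (6.05% of all windows), Cry1 among them. Neither call was kept without the second 6 h mouse (adjusted p from 0.109 to 0.111; 4 members lower at an unadjusted p under 0.05 in limma). Time of day and time after ligation cannot be told apart here.

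**Figure D5:**
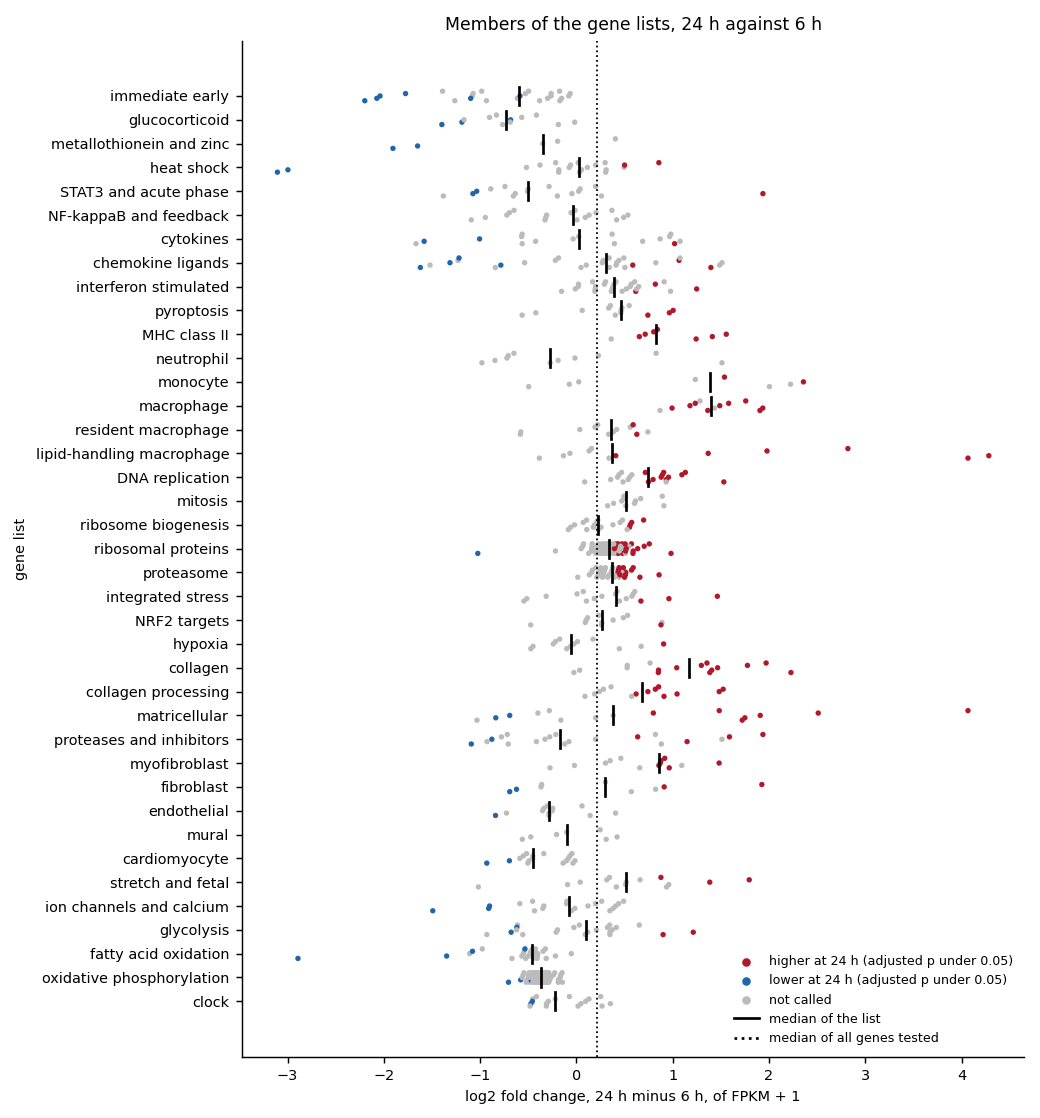
Log2 fold change from 6 h to 24 h (x axis, log2 of FPKM + 1) of each tested member of the gene lists (y axis, 1 row per list). Red points are genes called higher, blue points genes called lower and grey points genes not called, black ticks are list medians, and the dotted line is the median of all genes, 0.21. Collagen (1.17), macrophage (1.40) and MHC class II (0.82) lists lie to its right, and immediate early (-0.60) and glucocorticoid (-0.73) lists to its left.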

How the data were processed

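PolyA RNA was sequenced from the hearts of 18 mice in 6 groups of 3, of which the 6-h and 24-h AMI groups were compared and the control group was printed as background. Groups and replicates came from the sample titles. Per the labels' processing notes and the study's methods, the authors used cutadapt 1.18 for trimming, HISAT2 2.1.0 for alignment to mm10 and StringTie 1.3.4d for FPKM. The deposited table holds FPKM per symbol (18 columns, all mapped to mice). The annotation is not given in the sources used here, and the library kit named does not mark strand. Reads per library are unknown, so relative depth was read from the steps of FPKM under 0.05.

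FPKM were used as deposited. Genes with FPKM of at least 1 in at least 1 of the 6 mice were tested on log2(FPKM + 1) with limma 3.58.1 in R 4.3.3 (lmFit, eBayes with a variance trend), 3 mice against 3, two-sided, with Benjamini-Hochberg adjustment over the 12469 genes. On simulated data with 12222 genes, all 44 genes raised and 55 lowered by 1 on the log2 scale, and all 45 raised and 56 lowered by 2, were called with the right sign, with 9 of 12022 unchanged genes. The simulated noise was drawn separately for each gene, and changes were planted only among genes of higher mean level. The real mice differed along components shared by many genes and the median gene was shifted, so this recovery does not carry over to these data. With 3 against 3, an exact permutation test of a single value cannot go below p = 0.1, so none was run. P-values measure the spread between these mice. Named genes were the 12 largest rises and falls by log2 fold change with an adjusted p under 0.05, a ratio over 2, no overlap and an assigned name, and in each of 47 lists up to 4 called members with the largest change and the 2 most abundant not called. A gene that this rule names is not reported here. The members and lists were chosen with earlier results of these data known, and 2 more lists were added after values were seen, so no list was tested as a set. Promoter windows (250 bases before the start, RefSeq, GRCm38.p6) were searched on both strands; these coordinates are of that build and the expression table carries none. Alternatives were another pseudocount, other filters, 3 rescalings, array weights, no trend, a log2 threshold, all 18 mice in 1 fit, a replicate block and each mouse left out. Figures were drawn with matplotlib 3.10.9.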

Additional observations from a re-analysis of the deposited data

How the results depend on the processing

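The 554 genes higher and 125 lower at 24 h were recounted under each alternative, and all 1993 genes called by the adjusted p kept their sign wherever they had a value. The counts stayed within 1.5 times with a pseudocount of 0.1 (580 and 120), no filter on low FPKM (461 and 86), a mean FPKM filter (518 and 111), a filter over all 18 mice (596 and 127), rescaling to the same sum (583 and 122), no variance trend (576 and 126) and array weights (728 and 176). They moved further with quantile normalization (205 higher, against 178 lower), after median-of-ratios scaling (222 and 191), with all 18 mice in 1 fit (964 and 196) and where a log2 fold change over 1 replaced the ratio (283 and 79). Both rescalings centre the median gene, which shifts calls from higher to lower. Leaving out each mouse in turn gave 1 to 724 higher and 1 to 152 lower, fewest without the second 6 h mouse; the cause was not tested. The fit of all 18 mice was repeated with each of the 6 left out, an alternative chosen after seeing the data. It gave 1016 and 174, 833 and 219, and 1018 and 208 without the 6 h mice in turn, and 1252 and 240, 930 and 159, and 775 and 272 without those of 24 h. With the replicate number as a block, limma called 1 gene higher and 0 lower (764 and 173 at an unadjusted p under 0.05 with the ratio). Nothing in the labels says that replicate numbers pair mice, and deviations of same-numbered mice from their group means correlated at -0.27, 0.42 and -0.33, so the block is not read as a weaker effect. Of the 127 named genes called, all were called in the fit of all 18 mice, 88 after median-of-ratios scaling and 2 without the second 6 h mouse (the overlapping Kctd12 and Mir5130). The unknown read depth limits what can be said of genes near 0 FPKM.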

Other observations

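Genes of protein folding in the endoplasmic reticulum, a list added after their values were seen, rose from 6 h to 24 h. Of 18 tested, 14 rose and 0 fell (15 higher and none lower at an unadjusted p under 0.05 in limma), with a median of 0.99 on the log2 scale against 0.21 for all genes. Sdf2l1, a component of the lumenal chaperone complexes, was at 3.16, 2.18 and 3.56 FPKM at 6 h and 13.7, 12.7 and 17.9 FPKM at 24 h, against 2.88, 2.17 and 2.59 FPKM in sham. The 6 h mice were at the sham level and all 24 h mice above 12 FPKM. It rose 4.97-fold (log2 fold change 1.99 ± 0.19, adjusted p = 0.00731). Pdia4, a disulfide isomerase, was at 12.3, 8.42 and 11.3 FPKM at 6 h and 35, 36 and 57.7 FPKM at 24 h, against 15.3, 13.1 and 15.3 FPKM in sham, each 6 h mouse below each sham mouse and each 24 h mouse above. It rose 4.03-fold (adjusted p = 0.0107). Manf, a secreted factor of the stressed reticulum, was at 30.9, 21 and 24.6 FPKM at 6 h and 79.6, 69.9 and 99.8 FPKM at 24 h, against 24.5, 25.5 and 25.9 FPKM in sham (a rise of 3.26-fold, adjusted p = 0.00973), and Creld2 rose 3.93-fold, from 3.54 ± 0.906 FPKM at 6 h to 13.9 ± 5.19 FPKM at 24 h (adjusted p = 0.0146). Not all targets of reticulum stress went up: Herpud1, of the degradation pathway, was at 58.1, 79.3 and 102 FPKM at 6 h and 74, 49.6 and 48.1 FPKM at 24 h, against 70.6, 77.6 and 70.9 FPKM in sham, and did not pass (adjusted p = 0.198), and Canx, calnexin, was at 54.3 ± 5.09 FPKM at 6 h and 74.1 ± 7.98 FPKM at 24 h (adjusted p = 0.059). Median-of-ratios scaling called 11 of the 18 higher, and without the second 6 h mouse limma called none (adjusted p from 0.0559 to 0.122, 15 at an unadjusted p under 0.05).

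Targets of the aryl hydrocarbon receptor, also added after values were seen, included 2 falls among 5 tested. Cyp1a1 and Cyp1b1 reached their 24 h values from opposite sides of sham. Cyp1a1 was far below sham at 6 h and lower still at 24 h, whereas Cyp1b1 was at 23.6, 19.2 and 18.9 FPKM at 6 h and 4.13, 4.35 and 7.6 FPKM at 24 h, against 4.59, 5.5 and 6.82 FPKM in sham, above sham at 6 h in each mouse and back at it by 24 h. It fell 3.84-fold (log2 fold change -1.80 ± 0.21, adjusted p = 0.0108). Tiparp, a poly-ADP-ribose polymerase induced by the receptor, was at 18.3, 7.5 and 10.3 FPKM at 6 h and 5.01, 3.87 and 8.87 FPKM at 24 h, against 2.66, 3.26 and 3.61 FPKM in sham, and did not pass (adjusted p = 0.108), and Nqo1, which NRF2 induces too, was at 20.6 ± 3.49 FPKM at 6 h and 27 ± 3.14 FPKM at 24 h (adjusted p = 0.118). Both calls were lost without the second 6 h mouse (limma adjusted p 0.057, 3 members lower and 1 higher at an unadjusted p under 0.05) and kept after median-of-ratios scaling.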
